A study of Mus musculus with 5 samples.

Results

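The genes that RAW264.7 cells expressed with lipopolysaccharide (LPS) were compared with those expressed with vector, gene by gene, by RNA sequencing. A gene was included where its estimated counts, summed over its transcripts, reached 10 or more in at least 1 of 3 libraries, which 11503 of the 21878 gene symbols in the deposited table did. RAW264.7 is a mouse macrophage-like line that was established with Abelson leukaemia virus and grows continuously in culture. Both LPS libraries, replicates 1 and 2, came from cells with LPS at 0.5 mg/mL as labelled, and the single vector library came from cells with vector, whose content the labels do not state. All were grown in serum-containing medium, and no source used here gives the time with LPS. Another 2 libraries, from cells given the same LPS dose together with arctigenin at 1 μM, entered the statistical fit only to estimate the spread between replicates. Because vector had 1 library, it was assumed to vary like the replicate pairs, and the labels do not say whether replicates were separate cultures. The p-values therefore reflect no more than the spread among these samples, which may be technical.

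LPS is a lipid of the outer membrane of Gram-negative bacteria. It is carried by CD14 to the receptor TLR4 with its partner MD-2 (Ly96), which signals through MyD88 and TIRAP to NF-kB and MAP kinases, and through TRIF (Ticam1) and TRAM (Ticam2) to IRF3 and type I interferon. Interferon then acts back on the cell through STAT and IRF transcription factors, so that an activated macrophage runs an NF-kB programme beside an interferon programme, with feedback inhibitors of each.

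Library totals were 20783939 and 20496183 estimated counts with LPS and 21578355 with vector. Log2 levels of the LPS replicates correlated at r = 0.9886 across genes, against 0.9297 and 0.9288 between LPS and vector, where genes are not independent replicates. Over the 10390 genes with at least 1 CPM (counts relative to the library total, scaled by TMM normalisation) in both LPS libraries, the replicates differed by a median of 0.095 on the log2 scale, and 2.97% of these genes lay more than 1.5-fold apart. All 15 macrophage markers of a prepared list passed the rule of 10 counts. Of 27 markers of other cell types, 7 passed the same rule. Of these, 3 (Dcn, Lum and Pecam1) were higher with LPS in the test described below. Another 9 of the 27 were at 0 in the LPS and vector libraries, among them Cd3e, Ncr1, Elane, Epcam and Alb. The list summed to 8.78 and 7.28 CPM with LPS and 4.78 CPM with vector.

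Slightly more than 1 in 2 measured genes differed with LPS. Of the 11503 genes, 11431 could be tested, and 3132 were higher and 2886 lower with LPS than with vector at an adjusted p under 0.05, in edgeR's quasi-likelihood test (Benjamini-Hochberg). Over all 11575 genes in the fit 52.0% were called, 27.1% as higher and 24.9% as lower. These shares are the background for every count of a list given here. The 72 genes that failed the count filter reached at most 13 counts in a library. With library totals as the only scaling, 2015 genes were called higher and 4598 lower, and the median log2 fold change of all genes was −0.26, against −0.01 with TMM. Changes are therefore given relative to the TMM scale, on which most genes centre at 0.

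Large changes were more often rises than falls. Among called genes, 1053 were at least 2-fold higher and 836 at least 2-fold lower, and, with genes at 0 counts in vector or in both LPS libraries set at their bound against a floor of 3 counts per library, 192 were at least 8-fold higher and 37 at least 8-fold lower. By the same bounds 46 were at least 32-fold higher and 2 at least 32-fold lower. Genes with a fitted rise of at least 4-fold held 8.19% and 8.40% of all counts with LPS, against 1.38% with vector. Genes at least 2-fold lower held 1.61% and 1.57% of the counts with LPS, against 4.89% with vector. Both sets were chosen by their change, so the direction of these gaps was fixed in advance. Their thresholds differ, so the sizes of the gaps cannot be compared. The share of genes called grew with their level, from 16.5% of 880 genes under 1 CPM to 67.6% of those at 64 CPM or more, so a low gene that was not called may have moved without being detectable at this depth. In all 6018 called genes both LPS libraries lay on the same side of the vector library, and so they did in 4294 of the 5413 genes that were not called.

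**Figure D1:**
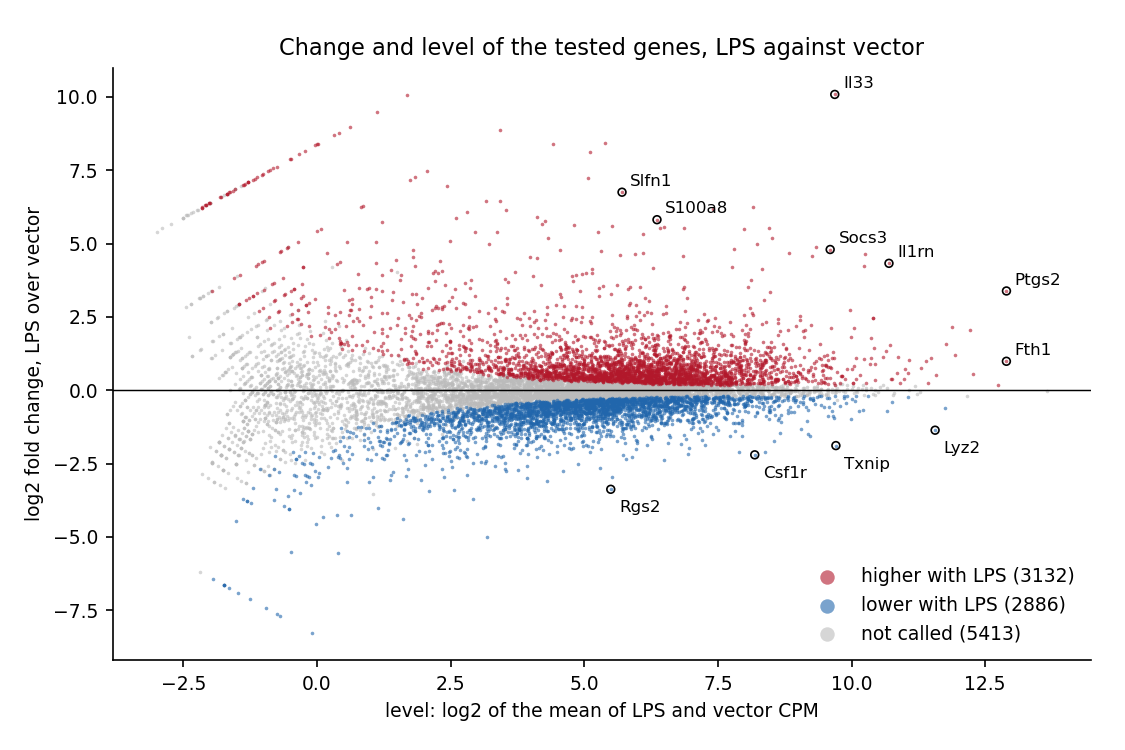
Each point is 1 of the 11431 tested genes, with its level (log2 of the mean of the LPS and vector CPM) on the x axis and its log2 fold change, LPS over vector, on the y axis. Genes called as higher are red, genes called as lower are blue and genes not called are grey. The labelled genes run from log2 10.08 in Il33 to log2 −3.38 in Rgs2. Some genes at lower levels, not labelled, fell further, such as Cytip (log2 −3.71). The slanted lines of points at low levels are genes with 0 or a few counts in vector or in LPS, whose fitted fold depends on the prior count.

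The 12 largest rises were taken among genes with at least 50 CPM in the higher group and 20 counts in every library of the lower, and they ran from 44.6-fold up to the rise of Il33. Il33, which encodes an alarmin cytokine, stood at 1629 and 1663 CPM with LPS and 1.51 CPM with vector. Kctd12, an auxiliary subunit of GABA-B receptors in neurons, had 328 and 342 CPM with LPS and 4.58 CPM with vector, a 73.1-fold rise (log2 6.19 ± 0.22, SE, adjusted p = 3.77e-07). Slfn1, a schlafen gene linked to growth arrest in thymocytes, had 94.4 and 113 CPM with LPS and 0.956 CPM with vector (108-fold). In each of these the replicates lay close together and far above the single vector value.

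S100a8, which encodes a calcium-binding alarmin, had 162 and 161 CPM with LPS and 2.87 CPM with vector, a 56.2-fold rise (log2 5.81 ± 0.18, SE, adjusted p = 2.44e-08). Its usual partner in the calprotectin dimer, S100a9, stood at 0.784 and 0.903 CPM with LPS and 0.836 CPM with vector (log2 0.01, adjusted p = 0.991), and was looked up after the value of S100a8 was seen. The podoplanin gene Pdpn, which encodes a sialoglycoprotein ligand of the platelet receptor CLEC-2, had 493 and 494 CPM with LPS and 11.1 CPM with vector (44.6-fold). Tnc, the matrix protein tenascin-C and itself a TLR4 agonist, had 227 and 228 CPM with LPS and 4.94 CPM with vector (46.0-fold). Urah, an enzyme of urate breakdown, had 180 and 172 CPM with LPS and 3.70 CPM with vector (47.4-fold), and Marcks, a substrate of protein kinase C that binds actin, had 49.8 and 60.4 CPM with LPS and 1.12 CPM with vector (49.1-fold). The other 4 of the 12 were Saa3, Il6, Nos2 and Il10, which rose 75.4-fold, 48.9-fold, 45.8-fold and 45.8-fold.

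Under the same limits on CPM and counts, the 12 largest falls lay between 4.32-fold and 10.4-fold. Larger falls were called in lower genes, such as Kirrel3, described with the adhesion genes. Rgs2, which shuts off Gq signalling, had 6.77 and 9.08 CPM with LPS and 82.3 CPM with vector (log2 −3.38 ± 0.16, SE, adjusted p = 1.65e-07). Gpr84, a receptor for medium-chain fatty acids, had 10.3 and 10.6 CPM with LPS and 81.7 CPM with vector (7.80-fold lower). Csf1r, the receptor for the macrophage growth factor CSF1, had 110 and 98.7 CPM with LPS and 480 CPM with vector (4.60-fold lower). Trem2, a lipid receptor of macrophages and microglia, had 20.3 and 20.7 CPM with LPS and 98.8 CPM with vector (4.81-fold lower). In Rgs2, Gpr84, Csf1r and Trem2 the LPS libraries were well below vector and close to each other.

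Among the same 12, Rasgrp3, an exchange factor that activates Ras and Rap1, had 27.1 and 30.4 CPM with LPS and 150 CPM with vector. Stmn1, the microtubule-destabilising protein stathmin, had 18.6 and 17.7 CPM with LPS and 92.1 CPM with vector. Cited2, a partner of CBP and p300 that limits NF-kB and HIF-1 responses, had 89.1 and 88.8 CPM with LPS and 384 CPM with vector. The histone deacetylase Hdac9, the neutral amino acid transporter Slc1a4 and the protease gene Plau, urokinase, were 5.68-fold, 4.62-fold and 4.54-fold lower. Angptl6 was called as 6.28-fold lower, a call lost with curated transcripts alone (log2 −1.11, adjusted p = 0.728). Atr, a DNA damage checkpoint kinase, was called as 4.33-fold lower (log2 −2.11). With curated transcripts alone its log2 fold change was −2.31 but the call was lost (adjusted p = 0.37), with 194 and 109 counts with LPS and 940 with vector.

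**Figure D2:**
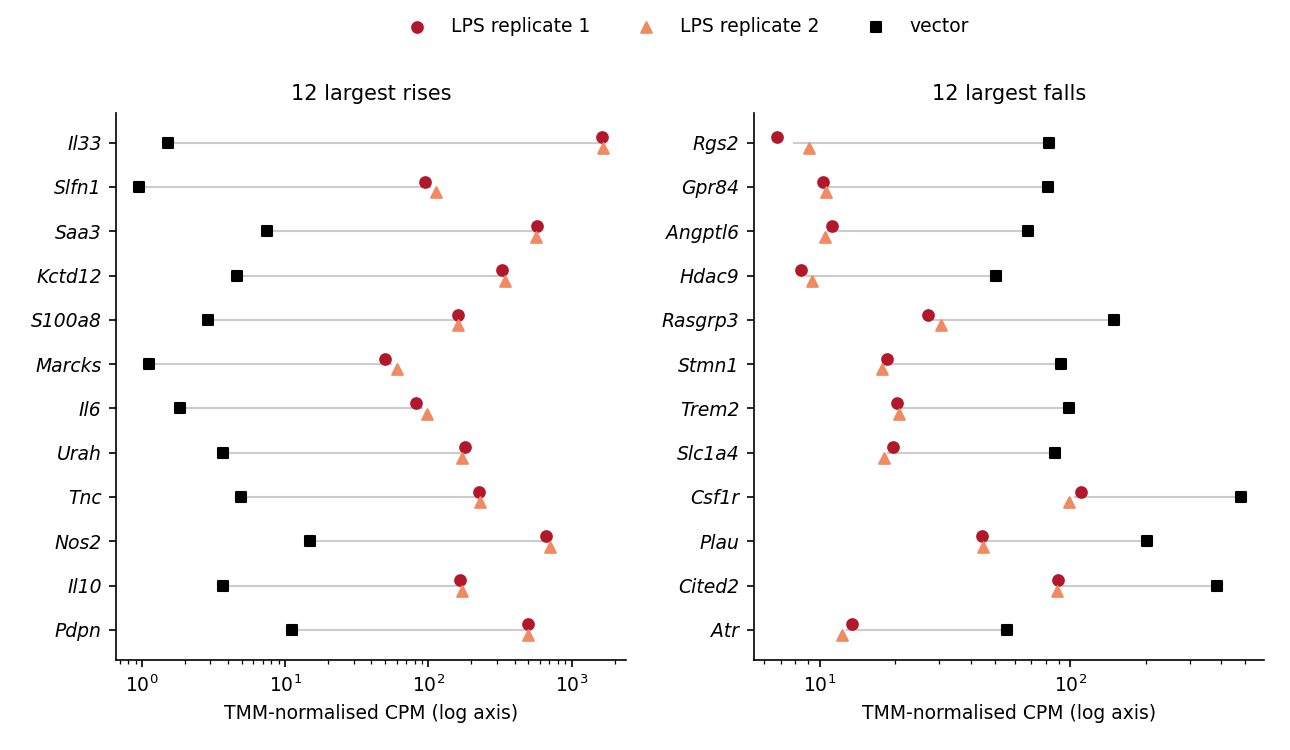
The level in each library, in TMM-normalised CPM on a log axis, of the 12 largest rises (left panel) and the 12 largest falls (right panel) among well-measured genes. Red circles and orange triangles are LPS replicates 1 and 2, black squares are the vector library, and the grey line joins the LPS mean to vector. In all 24 genes both LPS points lie on the same side of vector, and the gap to vector exceeds the gap between the LPS points. The genes were chosen for their large change, so this separation follows largely from the choice.

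The genes that gained most in CPM were partly ones that vector cells already expressed strongly. Ptgs2, the inducible cyclooxygenase, gained 12591 CPM on average, and the chemokine gene Ccl9 gained 5835 CPM, with 7600 and 7800 CPM with LPS and 1865 CPM with vector. The heavy and light ferritin chains Fth1 and Ftl1, which store iron, gained 5025 and 3039 CPM, although their folds were only 1.98 and 2.28. Slfn4, a schlafen gene of myeloid cells, had 5959 and 6357 CPM with LPS and 1378 CPM with vector. Plek, the platelet and leukocyte protein kinase C substrate pleckstrin, had 3960 and 3898 CPM with LPS and 1837 CPM with vector. Among the 12 was also Olfr1033, with 2274 and 2287 CPM with LPS and 412 CPM with vector. All of its counts were on predicted transcripts, and its curated transcript was at 0 in the LPS and vector libraries.

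The genes that lost most in CPM included both lysozyme genes. Lyz2 had 1749 and 1641 CPM with LPS and 4358 CPM with vector, and Lyz1 had 335 and 278 CPM with LPS and 864 CPM with vector. Shared reads may have been divided between these near-identical copies, as between the Slfn, Gbp, Ccl, Oasl and Trim30 genes, so members of such families are uncertain one by one. No source used here says whether counting was strand-specific, and a gene could share counts with an antisense partner. Txnip, an inhibitor of thioredoxin and glucose uptake, had 390 and 321 CPM with LPS and 1316 CPM with vector, a 3.70-fold fall (log2 −1.89 ± 0.10, SE, adjusted p = 7.6e-07). Lpl, lipoprotein lipase, had 688 and 686 CPM with LPS and 1343 CPM with vector, and Slc38a2, an amino acid transporter, had 316 and 287 CPM with LPS and 894 CPM with vector. The RNA-binding proteins Ncl, Ddx5 and Serbp1, the mitochondrial chaperone Hspa9 and prothymosin (Ptma) lost between 470 and 544 CPM each. Sqstm1, the autophagy receptor p62, had 1265 and 1215 CPM with LPS and 2009 CPM with vector (adjusted p = 0.0249), a call that did not hold without LPS replicate 2 (0.0597), in DESeq2 (0.0668), without the count filter (0.169) or with curated transcripts alone (0.0699). An unnamed gene model, LOC108168376, annotated as NYNRIN-like in the deposited table, completed the 12 with 2715 and 2697 CPM with LPS and 4155 CPM with vector.

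Of the 79 genes with 0 counts in vector, 68 could be tested and 45 were called as higher. These genes were included only for their counts with LPS, so their direction was fixed in advance. The 45 therefore cannot be set against the share of all genes called as higher. The highest of these genes with LPS was Slc7a2, a cationic amino acid transporter, with 135 and 123 counts. This was at least 53.5-fold above the 3 counts that a library with none allows. Erich2, the lysosomal phospholipase gene Plbd1, the cytokine Il19 and the transcription factor gene Sox30 were at least 25.5-fold, 21.0-fold, 16.8-fold and 16.8-fold higher, and Crispld2 at least 16.4-fold. The call of Erich2 was lost with curated transcripts alone (adjusted p = 0.0606). In the other direction, 25 genes were at 0 in both LPS libraries and 11 of these were called as lower. Their direction was fixed in the same way. These 25 cannot be set against the 79, because they needed 0 in both LPS libraries and the 79 needed it in vector alone. Intervals and floors cover counting error only.

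Genes of LPS recognition moved by small steps in both directions. Of 26 tested genes for LPS sensing and adaptors, 9 rose and 5 fell, with a median log2 fold change of 0.07 against −0.01 over all genes, and with library totals alone 6 rose, 10 fell and the median was −0.18. Without LPS replicate 2 the falls numbered 2, and with curated transcripts alone 5 rose and 3 fell. Tlr4 had 181 and 171 CPM with LPS and 243 CPM with vector, a 1.38-fold fall (log2 −0.46 ± 0.07, SE, adjusted p = 0.000456), and the TRAM adaptor Ticam2 fell 1.66-fold. Cd14 and Ly96 had log2 fold changes of −0.14 and 0.11 and were not called. The endosomal RNA receptors Tlr3 and Tlr8 rose 3.51-fold and 2.65-fold. The IRF3 kinase Tbk1 rose 2.02-fold and the TRIF adaptor Ticam1 rose 1.63-fold.

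Feedback inhibitors of TLR and NF-kB signalling were mostly higher with LPS. In that list, which also holds the NF-kB subunits, 17 of 28 genes rose and 3 fell (median log2 fold change 1.13). The falls numbered 1 with either LPS replicate left out and 5 with library totals alone or without LPS with arctigenin replicate 2. Socs3, which blocks cytokine receptor signalling to STAT3, had 1513 and 1483 CPM with LPS and 53.9 CPM with vector, a 27.8-fold rise (log2 4.80 ± 0.14, SE, adjusted p = 2.15e-08). The mRNA-destabilising protein Zfp36 (tristetraprolin) had 2269 and 2291 CPM with LPS and 414 CPM with vector. Tnfaip3 (A20), a ubiquitin-editing inhibitor, and Cish, a further SOCS protein, rose 5.28-fold and 5.10-fold. The NF-kB subunit genes went different ways. Relb had 21.5 and 19.6 CPM with LPS and 39.6 CPM with vector, a 1.93-fold fall, while Rel rose 2.98-fold, Nfkb2 rose 1.59-fold and Nfkb1 was not called (log2 0.24). Rela and Nfkbib were called as 1.27-fold and 1.21-fold lower, calls that were lost with either LPS replicate left out and with curated transcripts alone (adjusted p = 0.0563 to 0.113).

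IRF and STAT transcription factors were mostly higher with LPS. Of 14 tested IRF and STAT genes 11 rose and 1 fell (median log2 fold change 1.16), the falls numbering 0 to 2 over the alternatives run. Irf4, better known from lymphocytes and alternatively activated macrophages, had 53.9 and 55.9 CPM with LPS and 5.26 CPM with vector (10.4-fold). Stat5a had 111 and 108 CPM with LPS and 14.7 CPM with vector (7.46-fold), and Stat5b rose 2.56-fold. Irf7, the amplifier of type I interferon, had 848 and 920 CPM with LPS and 168 CPM with vector (5.26-fold), and Stat2 rose 4.48-fold. Irf3 and Stat6 were not called (log2 −0.20 and −0.19). Irf5 was called as 1.25-fold lower, but not without LPS replicate 1 (adjusted p = 0.107) or 2 (0.0616) or with curated transcripts alone (0.402).

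Of 50 tested antiviral genes in a list of tetherin, GTPases and nucleic acid sensors, 45 rose and 0 fell (median log2 fold change 1.42). With library totals alone 44 rose and 1 fell. Gbp2, an interferon-induced GTPase of the guanylate-binding family, had 27.4 and 38.7 CPM with LPS and 1.43 CPM with vector (22.9-fold). Gbp7 and Gbp3 rose 15.9-fold and 12.1-fold. Trim30d had 20.4 and 28.5 CPM with LPS and 1.47 CPM with vector, with its call lost without the count filter (adjusted p = 0.0879). The cytosolic RNA sensors Ifih1 (MDA5) and Ddx58 (RIG-I) rose 2.86-fold and 2.25-fold and their adaptor Mavs 1.83-fold, while the DNA sensor gene Mb21d1 (cGAS) and its adaptor Tmem173 (STING) were not called (log2 −0.03 and 0.02). Bst2, tetherin, which holds budding virus at the cell surface, had 424 and 408 CPM with LPS and 160 CPM with vector.

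Promoters were searched for motifs of NF-kB and of the interferon response, which belong to the LPS pathway described above. Motifs of E2F and of the amino acid response, which that description does not name, were searched as well. The sequences of 6 genes described here are shown as examples, chosen after their values were seen. They are the 250 bases before the transcription start, 5′ to 3′ on the gene's strand, from RefSeq on GRCm38.p6, a later build than the mm9 named in the submitters' processing notes. Capitals mark the match, which may lie on either strand. Il1rn (chr2:24345121-24345370, plus strand, 1 of 3 starts in the table) and Nfkbia (chr12:55492648-55492897, minus strand) hold the NF-kB letters, GGG, any 2 bases and TTTCC. Gbp5 (chr3:142496684-142496933, plus strand) holds both the NF-kB letters and those of the interferon-stimulated response element (ISRE), GAAA, any 2 bases and GAAA. Tnfrsf1b (chr4:145246871-145247120, minus strand) and Stat2 (chr10:128270248-128270497, plus strand) hold the ISRE letters. Nolc1 (chr19:46075597-46075846, plus strand), a nucleolar gene that fell, holds the E2F letters TTTCCCGC.
Il1rn: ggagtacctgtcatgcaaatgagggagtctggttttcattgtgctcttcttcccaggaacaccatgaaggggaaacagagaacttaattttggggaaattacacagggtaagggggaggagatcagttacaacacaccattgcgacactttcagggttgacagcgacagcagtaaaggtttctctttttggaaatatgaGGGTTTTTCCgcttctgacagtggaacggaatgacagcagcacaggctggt
Nfkbia: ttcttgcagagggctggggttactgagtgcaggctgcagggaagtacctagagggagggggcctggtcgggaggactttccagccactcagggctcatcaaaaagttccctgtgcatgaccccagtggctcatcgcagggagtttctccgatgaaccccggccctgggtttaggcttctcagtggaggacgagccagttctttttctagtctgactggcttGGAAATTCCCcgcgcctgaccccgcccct
Gbp5: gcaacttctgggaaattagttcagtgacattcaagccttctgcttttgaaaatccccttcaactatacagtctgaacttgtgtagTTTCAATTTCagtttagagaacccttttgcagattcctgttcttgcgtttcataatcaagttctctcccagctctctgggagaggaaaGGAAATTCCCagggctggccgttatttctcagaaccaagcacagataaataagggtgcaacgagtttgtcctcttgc
Tnfrsf1b: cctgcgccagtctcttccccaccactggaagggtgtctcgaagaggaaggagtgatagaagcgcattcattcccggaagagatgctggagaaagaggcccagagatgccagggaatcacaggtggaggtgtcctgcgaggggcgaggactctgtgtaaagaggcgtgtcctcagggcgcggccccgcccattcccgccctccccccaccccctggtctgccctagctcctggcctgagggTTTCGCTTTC
Stat2: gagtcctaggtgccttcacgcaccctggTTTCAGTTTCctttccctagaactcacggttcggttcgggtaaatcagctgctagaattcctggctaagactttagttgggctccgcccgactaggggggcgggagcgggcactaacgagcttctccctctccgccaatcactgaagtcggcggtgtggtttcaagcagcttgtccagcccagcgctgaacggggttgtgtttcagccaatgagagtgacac
Nolc1: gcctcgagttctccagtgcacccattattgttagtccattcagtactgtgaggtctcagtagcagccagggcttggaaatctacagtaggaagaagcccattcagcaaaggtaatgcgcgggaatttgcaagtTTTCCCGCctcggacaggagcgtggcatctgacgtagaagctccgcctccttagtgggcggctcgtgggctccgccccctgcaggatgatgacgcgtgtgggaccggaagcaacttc
The matches begin 51 bases before the start in Il1rn, 29 in Nfkbia, 165 (ISRE) and 77 (NF-kB) in Gbp5, 10 in Tnfrsf1b, 222 in Stat2 and 117 in Nolc1.

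With LPS, Il1rn, the interleukin-1 receptor antagonist, stood at 3156 and 3182 CPM and in vector at 158 CPM. Nfkbia, which encodes the NF-kB inhibitor IkB-alpha, had 854 and 946 CPM with LPS and 215 CPM with vector. Tnfrsf1b, TNF receptor 2, had 2413 and 2262 CPM with LPS and 93.2 CPM with vector (25.1-fold), and Gbp5 had 31.3 and 36.8 CPM with LPS and 0.558 CPM with vector (60.4-fold). Nolc1 had 57.4 and 54.6 CPM with LPS and 118 CPM with vector (2.11-fold lower).

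Promoters were found for 9235 of the 11431 tested genes (80.8%) by gene ID, and both strands were searched. The ISRE letters were in 64 of 851 promoters (7.52%) of genes at least 2-fold higher with LPS. They were in 2.96% of promoters of genes less than 2-fold higher, 3.13% of those not called, 3.10% of those less than 2-fold lower, 2.84% of those at least 2-fold lower and 3.46% of all 27025 genes in the table. The NF-kB letters were in 23 of 851 (2.70%) of the promoters of genes at least 2-fold higher, 1.86% of those not called, 2.24% of those at least 2-fold lower and 1.65% of all. E2F letters were in 15 of 851 (1.76%) of the promoters of genes at least 2-fold higher, 1.96% of those not called, 2.86% of those less than 2-fold lower and 21 of 669 (3.14%) of those at least 2-fold lower. All genes in the table, at 1.03%, lay below every tested class. Letters of the amino acid response element (CARE, TGATGNAA) were in 4.94% of the promoters of genes at least 2-fold higher, 4.48% of those at least 2-fold lower, 2.35% of those not called and 3.91% of all. Of the 414 genes at least 4-fold higher only 331 (79.95%) had a promoter in the table, under the 80% required, so a check of that class is void. The 2-fold classes replaced it after this was seen. These shares are descriptions without a test, and a match is not a binding site.

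**Figure D3:**
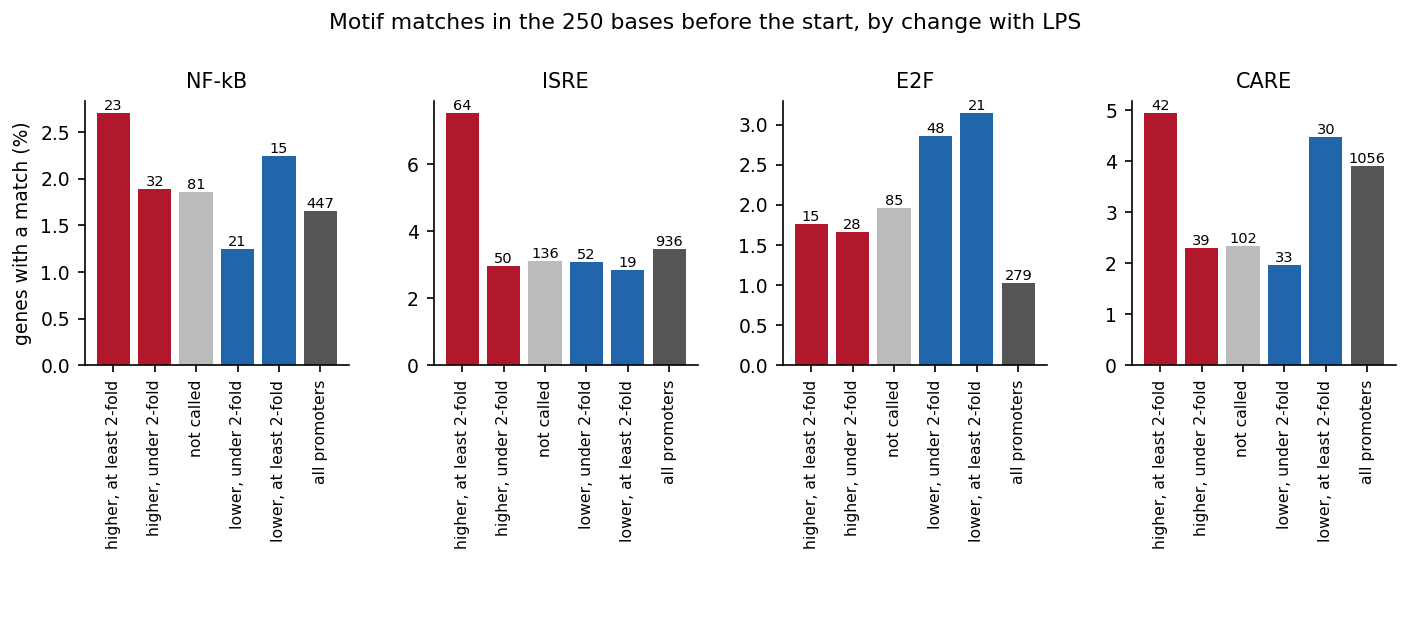
Bars give the percentage of genes with a match to each motif in the 250 bases before the start, by class of change with LPS, with the number of genes above each bar and a y axis from 0 that differs between panels. Red bars are genes higher with LPS, blue bars genes lower, the light grey bar genes not called and the dark bar all genes in the promoter table. The ISRE bar of genes at least 2-fold higher (7.52%) stands above the others of its panel, which lie between 2.84% and 3.46%.

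Receptors for cytokines were mostly higher, with CSF1R as the main exception. In the list of 36 tested genes 20 rose and 4 fell (median log2 fold change 0.63), the falls numbering 9 with library totals alone and 2 with curated transcripts alone. The rises included Il1rn, the interleukin-1 receptor antagonist (log2 4.32), which is not itself a receptor. Il1r1, the signalling interleukin-1 receptor, had 4.76 and 4.32 CPM with LPS and 0.0797 CPM with vector, a ratio of 57.0 (95% counting interval 15.5 to 474), and its call was lost with curated transcripts alone (adjusted p = 0.218). Il4ra, the receptor chain for interleukin-4 and interleukin-13, had 111 and 101 CPM with LPS and 9.28 CPM with vector, an 11.4-fold rise (log2 3.51 ± 0.16, SE, adjusted p = 1.93e-07). The chemokine receptor gene Ccr1 had 143 and 137 CPM with LPS and 36.6 CPM with vector. Cx3cr1, the fractalkine receptor, was called as 1.67-fold lower, but its transcripts disagreed. Its curated transcript had 348 and 290 counts with LPS and 191 with vector, and its predicted transcript had 0 and 62 counts with LPS and 539 with vector.

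Growth factors and tissue signals rose in 13 of 26 tested cases and fell in 7 (median log2 fold change 0.49). The falls numbered 3 without LPS replicate 1, without replicate 2 and in DESeq2, 2 with curated transcripts alone and 4 after the length and GC correction. Edn1, the vasoconstrictor endothelin-1, had 37.9 and 34.9 CPM with LPS and 0.717 CPM with vector (50.4-fold). Lif, an interleukin-6 family cytokine, had 131 and 132 CPM with LPS and 5.14 CPM with vector (25.5-fold), and the EGF receptor ligand Hbegf had 14.7 and 13.2 CPM with LPS and 1.51 CPM with vector (9.19-fold). Igf1, a macrophage product in tissue repair, had 123 and 128 CPM with LPS and 370 CPM with vector (2.96-fold lower), and Igfbp4, which binds it, had 2.89 and 3.11 CPM with LPS and 20.3 CPM with vector (6.76-fold lower). Spp1, osteopontin, was not called (log2 −0.03).

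Genes of the extracellular matrix and its proteases rose in 16 of 28 tested cases and fell in 2 (median log2 fold change 1.22). Lox, lysyl oxidase, which crosslinks collagen, had 72 and 72 counts with LPS and 1 with vector, a ratio of 89.7 (95% counting interval 15.8 to 3566). Serpinb2, an inhibitor of plasminogen activators, rose 41.8-fold. Its target protease Plau fell 4.54-fold, with 44.4 and 44.7 CPM with LPS and 202 CPM with vector, while its receptor Plaur rose 1.93-fold. Adam17, the sheddase that releases TNF, had 213 and 223 CPM with LPS and 595 CPM with vector (2.73-fold lower). Of the fibroblast markers Dcn had 79 and 67 counts with LPS and 8 with vector and Lum had 22 and 16 with LPS and 1 with vector, while Col1a1, Col3a1 and Pdgfra stayed at 8 counts or fewer in every library, and the part of such cells in these rises was not tested. Of the 3 markers of other cell types called as higher, 1 was called with either LPS replicate left out, in DESeq2 and with curated transcripts alone.

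G-protein-coupled receptors and RGS proteins were divided, with 13 rises and 14 falls among 37 tested genes and a median of −0.16. Without LPS replicate 1 and in DESeq2 the falls numbered 9, and with curated transcripts alone 7. The adenosine receptors rose, Adora2b with 60.8 and 61.9 CPM with LPS and 3.86 CPM with vector (15.9-fold), Adora2a 10.9-fold and Adora3 8.98-fold. The nucleotide receptors P2ry6 and P2ry2 rose 5.90-fold and 4.85-fold. Gpr183, an oxysterol receptor that guides lymphocyte migration, fell 3.48-fold. Rgs1 had 121 and 130 CPM with LPS and 542 CPM with vector (4.31-fold lower), while Rgs16 rose 4.65-fold.

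Complement and acute-phase genes rose in 8 of 18 tested cases and fell in 1 (median log2 fold change 0.84). Cfb, the alternative-pathway protease factor B, had 140 and 157 CPM with LPS and 8.25 CPM with vector (18.0-fold). Lcn2, lipocalin-2, which binds bacterial siderophores, had 606 and 573 CPM with LPS and 70.5 CPM with vector (8.37-fold). Procr, the endothelial protein C receptor, rose 6.09-fold. The C1q genes C1qb and C1qc were not called (log2 −0.07 and −0.49), but both were low. C1qb had 15 and 11 counts with LPS and 17 with vector, and C1qc had 6 and 11 with LPS and 15 with vector. C1qa, at 2 counts or fewer in these libraries, did not reach the 10 counts required.

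Metal handling genes rose in 19 of 26 cases and fell in 2 (median log2 fold change 0.52), or 13 and 3 with library totals alone. The falls numbered 0 with either LPS replicate left out and with curated transcripts alone. Mt2, a metallothionein that binds zinc and copper, had 1697 and 1780 CPM with LPS and 263 CPM with vector (6.61-fold). The copper pump Atp7a had 409 and 397 CPM with LPS and 148 CPM with vector (2.73-fold), and the copper importers Slc31a1 and Slc31a2 rose 2.25-fold and 2.16-fold. Slc11a1 (NRAMP1), which pumps metals out of the phagosome, rose 2.28-fold. Slc40a1, the iron exporter ferroportin, was called as 2.29-fold lower at 7.01 and 7.88 CPM with LPS and 17.1 CPM with vector, a call lost without LPS replicate 1 (adjusted p = 0.108) or 2 (0.0789) and with curated transcripts alone (0.137).

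Lipid genes rose in 25 of 47 tested cases and fell in 9 (median log2 fold change 0.27), or 16 and 10 with a median of 0.02 with library totals alone. Hilpda, an inhibitor of lipolysis on lipid droplets, rose 3.41-fold. Cd36, a scavenger receptor for oxidised lipid, had 2293 and 2315 CPM with LPS and 908 CPM with vector. Abca1, which exports cholesterol to apolipoprotein A-I, rose 2.07-fold, with 158 and 135 CPM with LPS and 70.5 CPM with vector. Abcg1, which exports it to HDL, had 62.1 and 51.2 CPM with LPS and 123 CPM with vector (2.17-fold lower). Cyp27a1, which makes 27-hydroxycholesterol, fell 2.98-fold, and the mitochondrial thioesterase Acot2 had 4.95 and 3.31 CPM with LPS and 35.5 CPM with vector (8.57-fold lower). Acaca, the first enzyme of fatty acid synthesis, was called as 3.07-fold higher, but only on its predicted transcripts. These had 1655 and 1493 counts with LPS and 580 with vector, and the curated transcript had 0 and 79 with LPS and 76 with vector.

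Lysosomal genes shifted upward by small steps. Of 32 genes 17 rose and 2 fell (median log2 fold change 0.37), or 12 and 6 with library totals alone, and without LPS replicate 1 there was 1 fall. Ctsc, which activates granule serine proteases, had 512 and 493 CPM with LPS and 181 CPM with vector (2.77-fold). Npc2, the lysosomal cholesterol carrier, and Psap, the precursor of the saposins, rose 2.73-fold and 2.70-fold, and the asparagine protease Lgmn rose 2.16-fold. Ctsf had 12.6 and 11.1 CPM with LPS and 30.6 CPM with vector (2.58-fold lower).

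Cell death genes rose in 17 of 37 tested cases and fell in 8 (median log2 fold change 0.30), with library totals alone 12 rose and 12 fell, and with curated transcripts alone 9 rose and 4 fell. Zbp1, a sensor of Z-form nucleic acid that triggers necroptosis, had 217 and 217 CPM with LPS and 24.3 CPM with vector (8.92-fold). Mlkl, the executioner of necroptosis, had 76.8 and 89.1 CPM with LPS and 25.4 CPM with vector (3.26-fold), while its activating kinase gene Ripk3 was not called (log2 0.11). Casp6 rose 5.21-fold, with 44.7 and 45.8 CPM with LPS and 8.68 CPM with vector. Bbc3 (PUMA), a p53-induced killer protein, fell 2.65-fold. Nlrp3, the inflammasome sensor usually primed by LPS, was called as 2.04-fold lower at 68.0 and 71.6 CPM with LPS and 143 CPM with vector. Its curated transcript had 997 and 252 counts with LPS and 514 with vector, and its predicted transcripts had 391 and 1174 with LPS and 3064 with vector. The direction of Nlrp3 therefore depended on which transcripts were summed, and its LPS replicates divided their counts differently between them. The related sensor gene Nlrp1b was called as 1.70-fold lower with all transcripts. With curated transcripts alone its log2 fold change was 1.69 and it was not called. That value rested on 1 and 25 counts with LPS and 5 with vector, so its direction is uncertain. The predicted transcripts of Nlrp1b had 500 and 501 counts with LPS and 1081 with vector.

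Most ligands for T cells rose, and no tested MHC class II gene was called as higher. In that list of 26 tested genes 15 rose and 2 fell (median log2 fold change 1.07). The falls numbered 1 with either LPS replicate left out and 4 with either LPS with arctigenin replicate left out. Cd274 (PD-L1), the checkpoint ligand, had 732 and 696 CPM with LPS and 19.5 CPM with vector, a 36.6-fold rise (log2 5.20 ± 0.10, SE, adjusted p = 1.25e-09). Slamf7, a self-ligand receptor of activated macrophages, had 71.2 and 78.8 CPM with LPS and 1.79 CPM with vector (41.7-fold). Vsir (VISTA), another inhibitory ligand, rose 4.95-fold. Cd74, the invariant chain of MHC class II, had 129 and 122 CPM with LPS and 325 CPM with vector (2.60-fold lower). H2-Ab1, H2-Eb1, H2-DMa, H2-DMb1 and H2-Oa were not called (log2 0.46, −0.91, −0.80, −1.65 and −2.48). Except for H2-DMa, these stayed at 34 counts or fewer in each LPS and vector library, so a change in them may have gone undetected.

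Lectin, Fc and scavenger receptors rose in 17 of 32 tested cases and fell in 7 (median log2 fold change 0.51), or in 4 with curated transcripts alone. Mrc1, the mannose receptor, often used as a marker of alternative activation, had 16.7 and 19.2 CPM with LPS and 0.558 CPM with vector (31.8-fold). The Fc receptors for IgG rose, both the inhibitory Fcgr2b (3.90-fold, with 230 and 228 CPM with LPS and 58.7 CPM with vector) and the activating Fcgr4 (3.25-fold), Fcgr1 (2.68-fold) and Fcgr3 (2.07-fold). Cd300lf, an inhibitory receptor for lipids, rose 5.76-fold. Clec5a had 166 and 182 CPM with LPS and 576 CPM with vector (3.30-fold lower), and Clec10a, a galactose-binding lectin, had 1.67 and 3.16 CPM with LPS and 11.3 CPM with vector (4.68-fold lower).

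Adhesion and actin genes rose in 18 of 33 tested cases and fell in 5 (median log2 fold change 0.59), or in 8 with library totals alone and 3 with curated transcripts alone. The integrin chains Itgav, Itgal and Itgax rose 4.23-fold, 2.90-fold and 2.56-fold, the first with 444 and 443 CPM with LPS and 105 CPM with vector. Itga4 had 294 and 307 CPM with LPS and 757 CPM with vector (2.52-fold lower). Icam1, a ligand of Itgal that LPS usually induces, had 49.6 and 47.6 CPM with LPS and 145 CPM with vector, a 2.99-fold fall (log2 −1.58 ± 0.09, SE, adjusted p = 3.67e-07). Kirrel3, an immunoglobulin-family adhesion gene of neurons, had 0.539 and 0.552 CPM with LPS and 17.6 CPM with vector.

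Among macrophage transcription factors 25 of 45 tested genes rose and 6 fell (median log2 fold change 0.51), with 12 falls under library totals alone. Mxd1, a MAX partner that opposes MYC, had 584 and 631 CPM with LPS and 34.9 CPM with vector (17.4-fold), while Myc was not called (log2 −0.21). Nr4a3 had a ratio of 20.8 (95% counting interval 6.90 to 102) over 3 counts in vector, and Maf, at 0 counts in vector, was at least 7.48-fold higher. Cebpb rose 2.15-fold. Klf2, which restrains macrophage activation, had 1.52 and 1.20 CPM with LPS and 8.76 CPM with vector (6.40-fold lower), and Klf4 fell 2.27-fold, with 31.6 and 31.1 CPM with LPS and 71.4 CPM with vector. Nfe2l2 (NRF2), the activator of antioxidant genes, fell 1.56-fold.

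Genes that build the ribosome were lower with LPS. Of 53 genes for ribosome biogenesis 48 fell and 0 rose (median log2 fold change −0.98), and with library totals alone 51 fell and 0 rose. Gnl3, the nucleolar GTPase nucleostemin, had 28.8 and 33.2 CPM with LPS and 113 CPM with vector, a 3.63-fold fall (log2 −1.86 ± 0.11, SE, adjusted p = 6.74e-07). Dkc1, dyskerin, the pseudouridine synthase of ribosomal RNA and of telomerase RNA, had 13.8 and 15.2 CPM with LPS and 48.4 CPM with vector (3.34-fold lower). Ppan and Utp20, factors of ribosomal RNA processing, fell 3.39-fold and 3.24-fold. Short transcripts were lower with LPS in general: the median log2 fold change was −0.16 in the shortest and 0.18 in the longest of 3 equal classes of transcript length. After a correction for length and GC content, chosen after seeing the data, 47 of the ribosome biogenesis genes were called as lower.

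Of 20 aminoacyl-tRNA synthetase genes 12 fell and 0 rose (median log2 fold change −0.40), led by Vars with 56.3 and 53.1 CPM with LPS and 125 CPM with vector (2.28-fold lower). Of 48 genes for mitochondrial translation and import 35 fell and 1 rose (median log2 fold change −0.50), or 26 and 2 after the length and GC correction, and with curated transcripts alone 22 fell. Timm10, a chaperone of the intermembrane space, had 3.29 and 2.36 CPM with LPS and 15.1 CPM with vector (5.34-fold lower). Of 45 tested genes for DNA repair and chromatin assembly 28 fell and 6 rose (median log2 fold change −0.76). The rises numbered 3 without LPS replicate 1 and 2 with library totals alone or after the length and GC correction, and with curated transcripts alone 17 fell and 3 rose. The checkpoint kinase gene Chek1 had 10.9 and 8.03 CPM with LPS and 31.9 CPM with vector (3.36-fold lower), and the glycosylase gene Neil3 fell 3.60-fold. Tet2, which oxidises methylcytosine, went the other way, with 308 and 288 CPM with LPS and 78.0 CPM with vector (3.82-fold).

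Nucleotide synthesis fell in 25 of 40 genes (median log2 fold change −0.64), but 8 genes rose. Those that fell included the makers and guards of the thymidylate pool. Tk1, thymidine kinase, had 5.98 and 6.58 CPM with LPS and 42.4 CPM with vector (6.75-fold lower), Dut, which removes dUTP, had 4.07 and 3.01 CPM with LPS and 23.5 CPM with vector (6.63-fold lower), and Dtymk fell 4.05-fold. Those that rose included Cmpk2, an interferon-induced mitochondrial kinase, with 95.9 and 112 CPM with LPS and 9.60 CPM with vector (10.8-fold). The phosphorylases of nucleoside salvage Upp1 and Pnp rose 7.42-fold and 4.14-fold.

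In polyamine, arginine and tryptophan metabolism 11 of 24 tested genes rose and 9 fell (median log2 fold change 0.36), 7 rose and 9 fell with library totals alone, and 7 rose and 5 fell with curated transcripts alone. Beside Nos2 and Slc7a2, the mitochondrial arginase Arg2 had 47.9 and 43.8 CPM with LPS and 8.40 CPM with vector (5.45-fold), and Ass1, which regenerates arginine from citrulline, rose 2.73-fold. Odc1, the first enzyme of polyamine synthesis, rose 2.02-fold, while Srm, spermidine synthase, had 11.7 and 11.2 CPM with LPS and 23.6 CPM with vector (2.06-fold lower). The enzymes Pts and Spr, which make the tetrahydrobiopterin cofactor of Nos2, fell 2.06-fold and 2.02-fold. Gch1, the first enzyme of that pathway, had 118 and 118 CPM with LPS and 98.6 CPM with vector (adjusted p = 0.0166), a call lost with either LPS replicate left out, in DESeq2, with library totals alone and with curated transcripts alone.

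Clock genes moved in opposite directions. Of 17 tested genes 6 rose and 3 fell (median log2 fold change 0.42), or 1 fell with curated transcripts alone. Nr1d1 (REV-ERB alpha), the repressor of the activator gene Arntl (BMAL1), had 27.5 and 30.6 CPM with LPS and 4.50 CPM with vector (6.44-fold). Arntl had 38.4 and 37.9 CPM with LPS and 97.4 CPM with vector, a 2.55-fold fall (log2 −1.35 ± 0.10, SE, adjusted p = 2.11e-06). Bhlhe41 and Bhlhe40, further repressors, rose 3.38-fold and 2.13-fold, and Clock, the partner of Arntl, rose 1.70-fold. Nr1d2 was called as 1.56-fold lower, but with an adjusted p of 0.055 with curated transcripts alone.

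**Figure D4:**
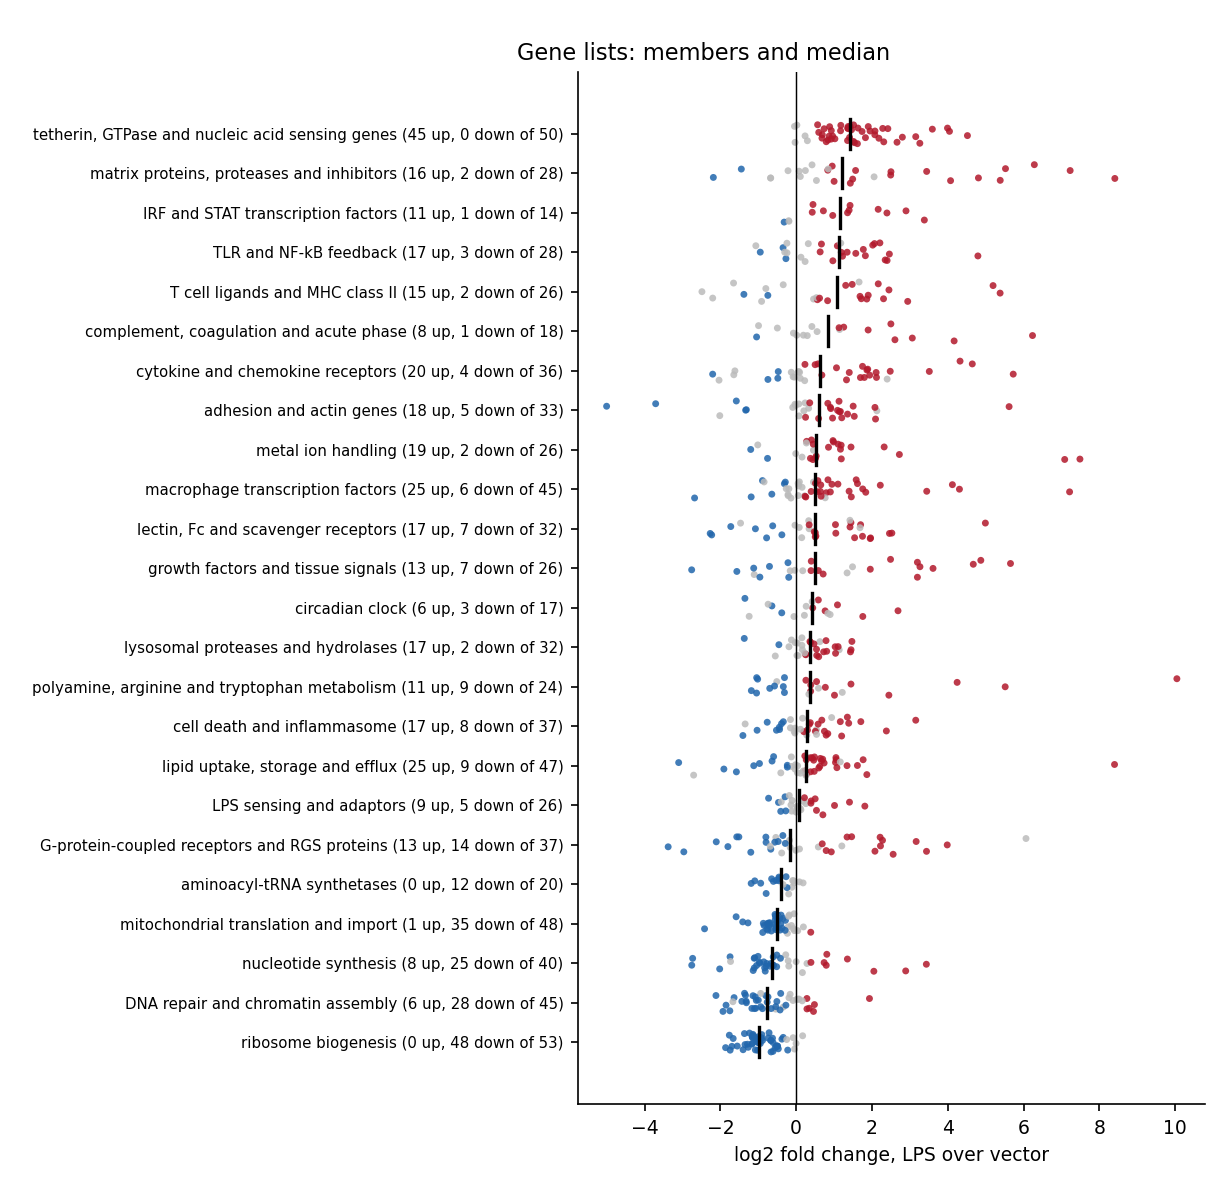
Log2 fold change, LPS over vector, of each tested member (points) of 24 gene lists, with the list's median as a black bar and the numbers called beside its name. Red points are members called as higher, blue points members called as lower and grey points members not called. Lists run from the tetherin, GTPase and nucleic acid sensing genes (median 1.42) at the top to ribosome biogenesis (median −0.98) at the bottom. With library totals as the only scaling the median of LPS sensing and adaptors turned to −0.18, and no other list shown changed the sign of its median.

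The macrophage markers themselves were divided. Of 15 genes 8 rose and 4 fell (median log2 fold change 0.25), or 6 and 5 with library totals alone. The integrin chain Itgam (CD11b) had 1029 and 958 CPM with LPS and 442 CPM with vector (2.25-fold), and Mpeg1, the pore-forming protein perforin-2, rose 1.86-fold, a call lost with curated transcripts alone (adjusted p = 0.0587). The 4 that fell were Csf1r, Lyz1, Lyz2 and Tyrobp, a signalling adaptor, which fell 1.30-fold, a call lost after the length and GC correction (adjusted p = 0.0746). Spi1 (PU.1), Cd14 and Aif1 were not called (log2 0.09, −0.14 and −0.18). In bulk RNA, fewer cells of a state and less RNA per cell cannot be told apart.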

How the data were processed

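Total RNA of RAW264.7 cells was sequenced in 5 libraries, with LPS (2), LPS with arctigenin (2) and vector (1). The deposited table holds the authors' estimated counts for 75959 transcripts (29883 curated and 46076 predicted). The submitters' processing notes name Trimmomatic, HISAT2, Cufflinks, HTSeq, DESeq and build mm9. No source used here names the tool that made the estimated counts. Counts were summed per gene symbol, rounded and filtered (edgeR filterByExpr, at least 10 counts, 15 in total), leaving 11575 genes. All 5 libraries were fitted together with edgeR 4.0.16 (R 4.3.3) by TMM and its quasi-likelihood test, p-values being adjusted after Benjamini and Hochberg (residual degrees of freedom 2, biological variation 7.13%). Calls needed an adjusted p below 0.05. SE is the log2 fold change divided by the root of the F statistic. The fit was also run on simulated data in which vector varied like the other libraries. That run could not check the assumption about the spread of vector. DESeq2 1.42.0 and limma 3.58.1 were alternatives. Library totals limit the precision of low genes, and 3 counts were the floor for a library at 0.

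The genes and lists were chosen with earlier results of these data known. Genes named are the 12 largest rises and falls with at least 50 CPM in the higher group and 20 counts in each library of the lower, the 12 that gained or lost most CPM, up to 4 called rises and 4 called falls per list, and the 6 highest with 0 counts in vector. Other list members were named after their values were seen. Lists are described by counts and medians, with no test. Some genes that this rule names are not reported here.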

Additional observations from a re-analysis of the deposited data

How the results depend on the processing

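The 6024 calls (3137 higher, 2887 lower) became 3211 (1895 higher, 1316 lower) with curated transcripts alone, of which 3116 were shared and 16 of these opposite. Library totals as the only scaling gave 6613 calls, 2015 higher and 4598 lower. Leaving out 1 LPS or LPS with arctigenin library gave 4543 to 6574 calls, 2500 to 3372 higher and 2013 to 3202 lower. DESeq2 called 4652 genes and the length and GC correction, chosen after seeing the data, 5358. The log2 fold changes of Acaca (−0.60), Cx3cr1 (1.07, adjusted p = 0.0308), Nlrp1b (1.69) and Nlrp3 (0.60) reversed with curated transcripts, and those of Atm (−0.05) and Tet3 (−0.06) with the length and GC correction. With curated transcripts, only Cx3cr1 was called in the reversed direction, and the value of Nlrp1b rested on few counts. The cause was not tested. Of the 208 genes picked by the naming rules, 34 of the 205 measured lost their call with curated transcripts. The call was lost in 16 and 18 without LPS replicate 1 or 2, in 13 with DESeq2, and in 5 or fewer in every other alternative run. Other list members named in the text, such as Gch1, are not in these counts. No paired analysis was possible because the vector library carries no replicate number and vector and LPS share none. With 1 vector library, its own deviation and the effect of LPS cannot be told apart.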

Other observations

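Gene families defined by a shared symbol stem were looked at after their values were seen and with no test. Among 190 families of 8 or more tested genes, some moved mainly in the same direction. Others were divided, such as the Slc genes, with 62 called as higher and 42 as lower of 199. The Srsf family was picked as an example of the former, and the smaller schlafen family was added to it. All 7 tested schlafen genes (Slfn) were called as higher with LPS, with Slfn5 at 286 and 304 CPM with LPS and 53.7 CPM with vector. Of 10 splicing factor genes of the Srsf family 9 were lower. Srsf6 had 68.4 and 68.7 CPM with LPS and 224 CPM with vector, while Srsf11 had 289 and 306 CPM with LPS and 231 CPM with vector.

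By the pathway names in the deposited table, the largest shares called as higher included steroid biosynthesis (11 of 16 genes, 68.8%) and IL-17 signaling (41 of 65, 63.1%). Their median log2 fold changes were 0.38 and 0.39. Large shares called as lower included DNA replication (27 of 35, 77.1%), mismatch repair (15 of 22, 68.2%) and the spliceosome (72 of 123, 58.5%). Over all genes 27.1% were called as higher and 24.9% as lower. The pathways were picked from 274 with their shares known and without a test. Their shares were not recounted in the alternatives, such as library totals alone, where the median of all genes was −0.26 against −0.01.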
